A study of Homo sapiens with 8 samples.

Results

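The genes described here are 44 genes of DNA replication and nucleotide supply, taken by symbol from the 60622 gene lines of the count table. They were read by the step at which they act: 6 of origin recognition and licensing, 7 of the MCM helicase family, 6 of helicase activation, 8 of the polymerases and primase, 7 of the sliding clamp, its loader and Okazaki fragment maturation, 5 of nucleotide supply, and 5 of fork protection and chromatin assembly. All 44 passed the filter on low counts and stand among the 21066 genes tested.

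The study made 8 RNA-seq libraries from 2 prostate cancer cell lines of human origin, 2 in each of 4 groups: LNCaP with miR-375 overexpressed, LNCaP control, PC3 with miR-375 overexpressed and PC3 control. LNCaP came from a metastasis in a lymph node and responds to androgen, whereas PC3 came from a metastasis in bone and grows without it. All were grown in RPMI-1640, with 10% serum for LNCaP and 20% for PC3, so line and serum cannot be told apart in any comparison of the lines. The sources used here give neither the means and duration of the overexpression nor the treatment of the controls.

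The libraries held 33973861 to 41890528 counts. Nothing in the labels says that the replicates were separate cultures, so the p-values reflect only how far these libraries differ, which may be technical spread. MIR375, the gene of the microRNA, had 0 counts in all 8 libraries, so its level could not be used to check the labels, and these poly(A)-selected libraries do not measure the mature microRNA. The line labels were checked by markers. KLK3, which LNCaP is known to express, was at 1796 and 1860 CPM (counts scaled to the size of each library) in LNCaP with miR-375, 2810 and 2760 CPM in LNCaP controls, and 0 in all 4 PC3 libraries. CAV1, known from PC3, was at 178 and 172 CPM in PC3 with miR-375, 341 and 337 CPM in PC3 controls, and at most 1.87 CPM in LNCaP. The summed leukocyte markers stayed at or below 0.311 CPM in every library. PECAM1, an endothelial marker, stood at 31.4 and 33.2 CPM in PC3 with miR-375 and 45.1 and 45.0 CPM in PC3 controls while CDH5, the other one, stayed at or below 0.167 CPM. The summed fibroblast markers were 390 and 368 CPM in PC3 with miR-375 against 140.5 and 146 CPM in PC3 controls, nearly all from COL1A1, while DCN stayed at or below 0.474 CPM there. In LNCaP they were 47.9 and 53.3 CPM with miR-375 and 41.8 and 48.7 CPM in controls. Mitochondrial genes took 2.67% and 2.83% of counts in LNCaP with miR-375 against 2.38% and 2.31% in its controls. The share in PC3 was 2.74% and 2.7% with miR-375 against 3.45% and 3.22% without. Their part in the results below was not tested.

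Before a cell copies its DNA, the origin recognition complex with CDC6 and CDT1 loads rings of MCM proteins on origins. At the start of S phase these rings are turned into working helicases by CDC45 and the GINS complex, after which primase, the replicative polymerases and the clamp PCNA copy both strands. The DNA building blocks are made by ribonucleotide reductase, thymidylate synthase and their partners. Many of these genes are transcribed in waves as cells enter S phase, under E2F transcription factors, so their summed RNA in a culture follows both the share of cells that are cycling and the level in each cell. In these bulk libraries fewer cycling cells and less RNA per cell cannot be told apart.

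The microRNA and the sites it could pair with are shown first, since the study raised its level. Capitals mark the seed, bases 2 to 8 of the mature strand, with the sequence taken from RefSeq (GRCh38.p14, chr2:219001648-219001669, minus strand).
hsa-miR-375-3p: uUUGUUCGuucggcucgcguga
The seed pairs with CGAACAA, or with GAACAAA where base 1 faces an A, and with both in the run CGAACAAA. In the longest 3′ UTR that GENCODE release 29 gives for each gene, 0 of 44 members held the full CGAACAAA run and 5 (11.4%) held one 7-base site, against 0.476% and 16.5% of 14902 tested genes with a 3′ UTR. These are letter matches, with no record of binding, and 3′ UTR length was not matched. The median 3′ UTR was 1201 bases in members with a site and 935 in members without. Over the tested genes it was 3037 bases with a site and 1083 without. The 5 members with a site are GINS4, RFC3, LIG1, TYMS and CLSPN. The sites of 4 of them, with the matched letters in capitals and 11 bases on each side, are as follows.
RFC3: gtgacagactcCGAACAAttcctttacta
LIG1: ccacagaaacaGAACAAAatatcacctag
TYMS: gctgaggttatGAACAAAgtgaggagaat
CLSPN: tattctgggcaGAACAAAcaattgatgac
The 5 members with a site had a median log2 fold change (miR-375 over control) of -1.52 in LNCaP and -1.47 in PC3. The 39 members without one had -1.28 in LNCaP and -1.19 in PC3. Over all tested genes with a 3′ UTR, the 2532 with a site had medians of -0.11 and -0.06 in the same order of lines, and the 12370 without one had 0 and 0.03. Among the members that fell most in LNCaP, CDC6, MCM10 and MCM5 held no site, while CLSPN and TYMS each held a 7-base site.

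The promoter windows, 250 bases before to 50 after each start site in RefSeq (GRCh38.p14), were searched on both strands for E2F letters (TTTCGCGC, TTTGGCGC, TTTCCCGC or TTTGGCGG), overlapping matches being counted separately. Of the 40 members found in the promoter table, with 54 windows, 25 (62.5%) held E2F letters in at least one window. That compares with 733 of 11681 tested protein-coding genes (6.28%) and 4.05% of all genes in the promoter table, with base composition not matched. All 5 helicase genes with a window (MCM2, MCM3, MCM6, MCM7 and MCM8) and all 5 of helicase activation (MCM10, CDC45, GINS1, GINS2 and GINS3) held them, against 3 of 6 in licensing, 4 of 7 among polymerases, 3 of 7 in the clamp group, 2 of 5 in nucleotide supply and 3 of 5 in fork protection. The CCAAT box (CCAAT) was in 62.5% of members and 42.9% of the tested protein-coding genes. The cell cycle homology letters (TTTGAA or TTTAAA), known from genes of late cell cycle phases, were in 15.0% of members and 22.2% of those genes. MCM4, MCM5, GINS4 and POLD3 were not searched.

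**Figure D1:**
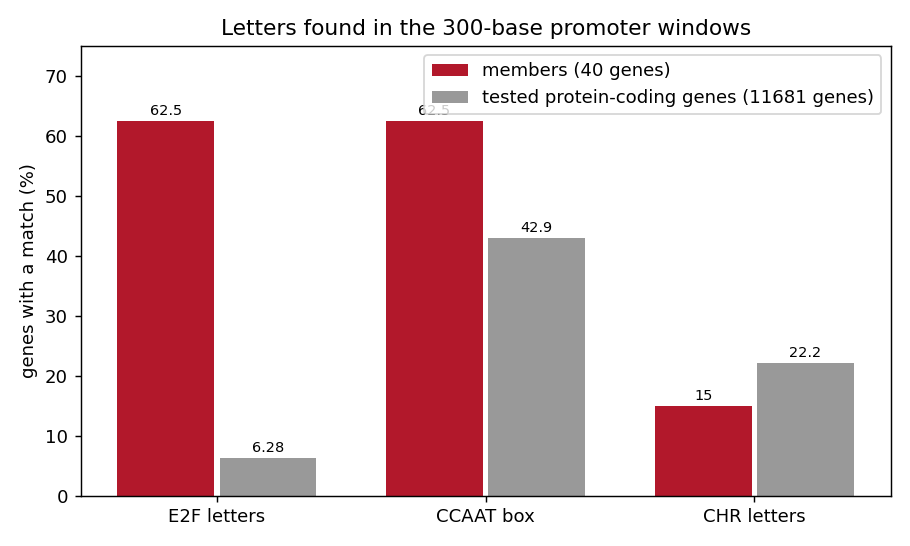
Share of genes (y axis, percent) whose promoter window holds E2F letters, the CCAAT box or the cell cycle homology (CHR) letters, for the 40 members with a window and for 11681 tested protein-coding genes. E2F letters were in 62.5% of members and 6.28% of the tested genes, and the CHR letters in 15.0% and 22.2%.

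Promoters are printed for 4 members that differ in letters and in response: CDC6, with the largest fall in both lines; MCM6, with the most E2F matches; ORC2, with the smallest fall among members called and no match; and TIPIN, the one member not called, for which the matching one of its windows is shown. Capitals mark the E2F letters.
CDC6 promoter, chr17:40287629-40287928, plus strand: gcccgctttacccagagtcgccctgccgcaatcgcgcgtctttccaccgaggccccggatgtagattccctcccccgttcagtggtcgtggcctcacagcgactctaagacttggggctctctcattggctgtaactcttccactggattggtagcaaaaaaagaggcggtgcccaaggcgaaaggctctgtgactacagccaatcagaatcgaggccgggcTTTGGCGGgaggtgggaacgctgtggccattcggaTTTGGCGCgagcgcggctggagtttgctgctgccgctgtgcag
MCM6 promoter, chr2:135876394-135876693, minus strand: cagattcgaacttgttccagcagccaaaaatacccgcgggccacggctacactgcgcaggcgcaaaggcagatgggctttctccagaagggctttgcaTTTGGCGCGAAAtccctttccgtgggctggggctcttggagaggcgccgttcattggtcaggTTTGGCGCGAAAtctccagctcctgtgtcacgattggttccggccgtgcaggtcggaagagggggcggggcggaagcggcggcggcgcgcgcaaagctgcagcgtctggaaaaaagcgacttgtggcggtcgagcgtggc
ORC2 promoter, chr2:200963611-200963910, minus strand: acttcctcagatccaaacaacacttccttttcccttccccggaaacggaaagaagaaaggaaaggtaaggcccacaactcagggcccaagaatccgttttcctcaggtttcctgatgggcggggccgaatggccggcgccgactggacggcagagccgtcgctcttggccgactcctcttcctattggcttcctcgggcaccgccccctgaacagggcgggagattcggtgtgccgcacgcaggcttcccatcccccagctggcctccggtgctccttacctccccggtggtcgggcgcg
TIPIN promoter, chr15:66356636-66356935, minus strand: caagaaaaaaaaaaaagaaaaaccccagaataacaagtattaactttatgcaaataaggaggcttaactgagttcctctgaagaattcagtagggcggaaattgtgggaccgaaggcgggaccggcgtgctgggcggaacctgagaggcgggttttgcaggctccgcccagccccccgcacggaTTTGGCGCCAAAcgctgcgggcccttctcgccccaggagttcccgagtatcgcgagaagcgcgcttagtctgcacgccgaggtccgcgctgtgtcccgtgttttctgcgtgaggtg
The 4 matches of MCM6 are 2 pairs that overlap on opposite strands in one run of 12 letters each, and the 2 matches of TIPIN are the 2 strands of 1 run. The 25 members with E2F letters had a median log2 fold change of -1.29 in LNCaP and -1.28 in PC3, and the 15 without had -1.17 in LNCaP and -1.09 in PC3. The ranges overlapped: from -2.06 to -0.16 in LNCaP with the letters, and from -1.49 to -0.60 without. Among all tested protein-coding genes the medians with the letters were -0.12 in LNCaP and -0.12 in PC3, and without them -0.01 and 0.01. A match is a description of the window and was not tested as a cause of any change.

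With miR-375, 43 of the 44 genes fell in LNCaP and 43 of 44 fell in PC3, and none rose in either line (edgeR's quasi-likelihood test, Benjamini-Hochberg adjusted p under 0.05 over all genes tested). Of all genes tested, 18.7% fell and 13.9% rose in LNCaP, and 20.8% fell and 22.2% rose in PC3. The 44 genes were chosen with earlier results of these data known, so this comparison is a description. The largest adjusted p among the called members was 1.73e-05 in LNCaP and 7.75e-06 in PC3. TIPIN was the one gene not called in both lines. The median log2 fold change over the 44 genes was -1.28 in LNCaP, where the median of all genes was 0, and -1.20 in PC3, where it was 0.02. The fall reached 2-fold in 31 genes in LNCaP and in 33 in PC3. Both miR-375 libraries lay below both controls for 44 of 44 genes in LNCaP (31.8% of all tested genes) and for 43 of 44 in PC3 (31.6%).

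Together the 44 genes took 0.140% and 0.140% of all counts in LNCaP with miR-375, against 0.304% and 0.305% in LNCaP controls. For PC3 they took 0.123% and 0.123% with miR-375, against 0.253% and 0.256% in controls. The share was lower by about the same factor in each line, and replicates differed little. Across the 44 genes the fold changes in LNCaP and in PC3, which share no library, had a Pearson r of 0.71 and a Spearman rho of 0.56, given as a description since genes are not independent replicates. By step, the median log2 fold changes in LNCaP and PC3 were -1.55 and -1.29 for the MCM helicase, -1.47 and -1.42 for nucleotide supply, -1.42 and -1.13 for licensing, and -1.34 and -1.39 for helicase activation. They were -1.12 and -1.07 for the clamp group, -1.10 and -1.19 for fork protection, and -1.02 and -1.06 for polymerases. Licensing and fork protection hold the widest ranges, from -2.06 to -0.60 and from -1.97 to -0.16 in LNCaP.

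**Figure D2:**
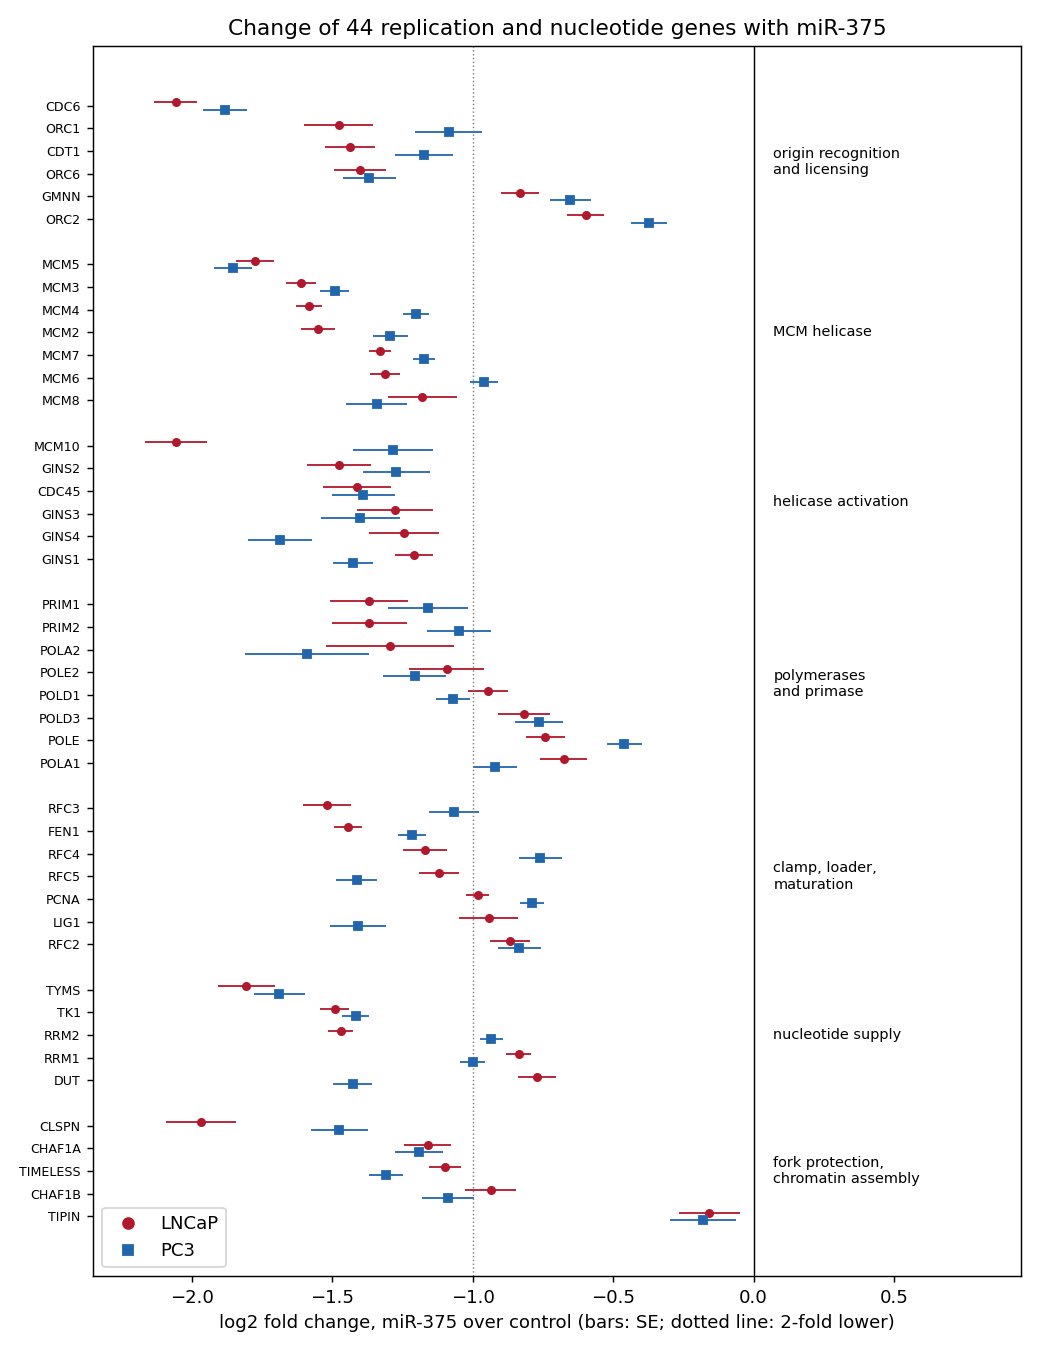
Log2 fold change of miR-375 over control (x axis) for each of the 44 genes (y axis, grouped by step), with circles for LNCaP and squares for PC3. Bars give the SE from edgeR's one fit of all 8 libraries, 2 per group. All points lie left of zero, CDC6 in LNCaP lies at -2.06, and TIPIN lies nearest to zero in both lines.

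In origin recognition and licensing all 6 genes fell in both lines. CDC6, the loader that brings the MCM rings to origins, fell most. CDC6 stood at 17.1 and 16.4 CPM in the LNCaP miR-375 libraries, against 68.8 and 70.5 CPM in the LNCaP controls. In PC3 it stood at 12.7 and 14.3 CPM with miR-375 and 49.0 and 50.3 CPM in controls. The groups did not overlap, and the log2 fold change was -2.06 ± 0.08 in LNCaP and -1.88 ± 0.08 in PC3 (SE, n = 2 libraries per group). Each SE here and below is the absolute log2 fold change divided by the square root of edgeR's quasi-likelihood F. Its spread comes from the one fit of all 8 libraries and draws on other genes, not on the 2 libraries of a group alone. ORC2, a core subunit of the origin recognition complex, had the smallest fall of the step, with 36.5 and 34.2 CPM in the LNCaP miR-375 libraries, against 51.4 and 55.5 CPM in the LNCaP controls. In PC3 it stood at 42 and 42.2 CPM with miR-375 and 53.0 and 56.0 CPM in controls, again without overlap. Its log2 fold change was -0.60 ± 0.07 in LNCaP and -0.37 ± 0.06 in PC3, with an adjusted p of 7.75e-06 there.

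The other subunits of that complex listed here had larger changes than ORC2. ORC1, the subunit whose level is tied to the cell cycle, had log2 fold changes of -1.48 ± 0.12 in LNCaP and -1.09 ± 0.12 in PC3. ORC6, the smallest subunit, had -1.40 ± 0.09 in LNCaP and -1.37 ± 0.09 in PC3. CDT1, which loads MCM rings with CDC6, stood at 22.1 and 25.2 CPM in the LNCaP miR-375 libraries, against 63.5 and 64.6 CPM in the LNCaP controls, and at 7.71 and 10.1 CPM with miR-375 and 21.2 and 19.1 CPM in controls in PC3. GMNN encodes geminin, the inhibitor that binds CDT1 and blocks a second round of loading. It changed by -0.83 ± 0.07 in LNCaP and -0.65 ± 0.07 in PC3, against -1.44 ± 0.09 and -1.17 ± 0.10 for CDT1. The ratio of CDT1 to GMNN counts was 0.536 and 0.632 in LNCaP with miR-375 against 0.853 and 0.923 in its controls. For PC3 it was 0.381 and 0.519 with miR-375 against 0.688 and 0.601 in controls. The ratio was lower with miR-375 in each line without overlap, and it was not tested. The ratio of CDC6 to ORC2 counts was 0.469 and 0.480 in LNCaP with miR-375 against 1.34 and 1.27 in its controls. For PC3 it was 0.302 and 0.339 with miR-375 against 0.924 and 0.899 in controls.

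**Figure D3:**
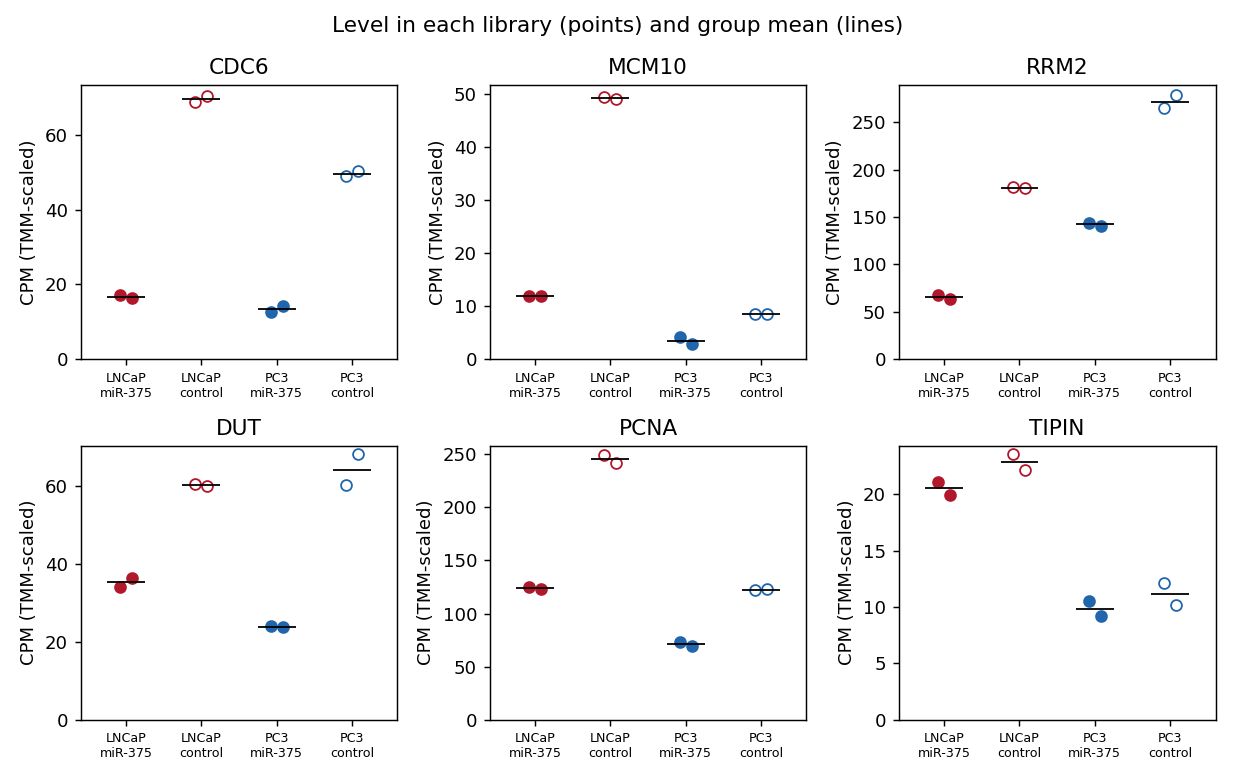
TMM-scaled CPM (y axis from 0) of 6 genes in each of the 8 libraries, with filled points for miR-375, open points for controls and lines for the mean of 2 libraries. CDC6, MCM10, RRM2, DUT and PCNA are lower in both miR-375 libraries of each line, while the TIPIN points of PC3 overlap.

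All 7 helicase genes fell in both lines. MCM2 to MCM7 encode the 6 subunits of the ring that unwinds DNA, and MCM8 encodes a related helicase that acts in recombination. MCM5 had the largest fall, with 21.1 and 22.6 CPM in the LNCaP miR-375 libraries, against 77.1 and 72.6 CPM in the LNCaP controls. In PC3 it stood at 20.5 and 22.9 CPM with miR-375 and 77.8 and 79.1 CPM in controls. The lines lay close to each other in each condition, and the log2 fold change was -1.78 ± 0.07 in LNCaP and -1.85 ± 0.07 in PC3. MCM6 had the smallest fall of the step in PC3, -0.96 ± 0.05, with 55.8 and 55.5 CPM with miR-375 and 111 and 106 CPM in controls. In LNCaP it had 41.0 and 41.4 CPM with miR-375 and 100.1 and 104 CPM in controls, a log2 fold change of -1.31 ± 0.05. MCM8 had the smallest fall in LNCaP, -1.18 ± 0.12, with 6.37 and 5.92 CPM with miR-375 and 14.1 and 13.7 CPM in controls, and -1.34 ± 0.11 in PC3, with 10.3 and 10.2 CPM with miR-375 and 26.3 and 25.7 CPM in controls. None of these groups overlapped.

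The other ring subunits fell by log2 fold changes between the values of MCM5 and MCM6. MCM2 changed by -1.55 ± 0.06 in LNCaP and -1.29 ± 0.06 in PC3, MCM3 by -1.61 ± 0.05 and -1.49 ± 0.05, MCM4 by -1.58 ± 0.05 and -1.20 ± 0.05, and MCM7 by -1.33 ± 0.04 and -1.17 ± 0.04, in the same order of lines. MCM7 stood at 146 and 149 CPM in the LNCaP miR-375 libraries, against 371 and 369.6 CPM in the LNCaP controls. Per kilobase of exon, the mean level of MCM7, the highest of the 6 in LNCaP, was 33.6 CPM in LNCaP with miR-375 and 84.5 CPM in LNCaP controls. MCM5, the lowest of the 6 there, had 2.98 CPM per kilobase with miR-375 and 10.2 CPM per kilobase in those controls. On this scale, which divides by all annotated exon bases, MCM7 and MCM5 differed from each other in LNCaP by more than either changed with miR-375.

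All 6 genes of helicase activation fell at least 2-fold in both lines. MCM10, which helps to start the helicase, had the largest fall in LNCaP, with 11.9 and 11.8 CPM in the LNCaP miR-375 libraries, against 49.3 and 49.0 CPM in the LNCaP controls, a log2 fold change of -2.06 ± 0.11. In PC3 it started far lower, with 4.19 and 2.75 CPM with miR-375 and 8.43 and 8.46 CPM in controls, a log2 fold change of -1.28 ± 0.14. The PC3 miR-375 libraries differed from each other more than the other pairs did. GINS1 to GINS4 encode the subunits of the GINS complex, a fixed part of the working helicase. GINS4 had the largest fall of the step in PC3, -1.68 ± 0.11, with 8.81 and 8.40 CPM with miR-375 and 28.7 and 26.6 CPM in controls, and -1.24 ± 0.13 in LNCaP, with 5.66 and 6.81 CPM with miR-375 and 14.9 and 14.7 CPM in controls. GINS1 had the smallest fall in LNCaP, -1.21 ± 0.07, with 32.2 and 29.2 CPM with miR-375 and 72.7 and 69.4 CPM in controls, and -1.43 ± 0.07 in PC3, with 17.2 and 17.2 CPM with miR-375 and 46.4 and 46.2 CPM in controls. In both lines the miR-375 libraries of GINS1 and GINS4 lay below the controls without overlap. GINS2 had the smallest in PC3, -1.27 ± 0.12, with 7.09 and 6.55 CPM with miR-375 and 17.6 and 15.3 CPM in controls, and -1.48 ± 0.11 in LNCaP, with 10.5 and 10.1 CPM with miR-375 and 30.4 and 27.1 CPM in controls. GINS3 changed by -1.28 ± 0.14 in LNCaP and -1.40 ± 0.14 in PC3. CDC45, the third component of the active helicase, changed by -1.41 ± 0.12 in LNCaP and -1.39 ± 0.11 in PC3, so its values in the lines lay within one SE of each other.

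All 8 polymerase and primase genes fell in both lines, and 4 in LNCaP and 5 in PC3 fell by 2-fold or more. Among the parts of the polymerase alpha-primase complex, which lays the first primers, PRIM1, the catalytic primase subunit, had the largest fall in LNCaP, with 6.75 and 6.28 CPM in the LNCaP miR-375 libraries, against 16.8 and 16.9 CPM in the LNCaP controls. In PC3 it had 5.38 and 4.79 CPM with miR-375 and 12.4 and 10.3 CPM in controls. The log2 fold change was -1.37 ± 0.14 in LNCaP and -1.16 ± 0.14 in PC3, and the groups did not overlap. PRIM2, the large primase subunit, changed by -1.37 ± 0.13 in LNCaP and -1.05 ± 0.11 in PC3. POLA2, the regulatory subunit, had the largest fall in PC3, -1.59 ± 0.22, with 2.38 and 1.76 CPM with miR-375 and 5.76 and 6.69 CPM in controls, the lowest levels per kilobase of any member. Its SE was the largest of the 44 genes in each line, and it changed by -1.29 ± 0.23 in LNCaP, with 2.03 and 2.21 CPM with miR-375 and 5.35 and 5.07 CPM in controls. POLA1, the catalytic subunit of polymerase alpha, had the smallest fall in LNCaP, -0.68 ± 0.08, with 19.2 and 18.3 CPM with miR-375 and 29.7 and 30.2 CPM in controls. In PC3 POLA1 changed by -0.92 ± 0.08, with 22.8 and 24.7 CPM with miR-375 and 46.1 and 43.8 CPM in controls. None of the groups of these genes overlapped.

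Of polymerase epsilon, the leading-strand enzyme, the catalytic subunit POLE had the smallest fall of the step in PC3, -0.46 ± 0.06, with 50.4 and 49.0 CPM with miR-375 and 69.1 and 67.6 CPM in controls. In LNCaP POLE changed by -0.74 ± 0.07, with 25.8 and 28.6 CPM with miR-375 and 43.8 and 46.9 CPM in controls. Its second subunit POLE2 changed by -1.09 ± 0.13 in LNCaP and -1.21 ± 0.11 in PC3. The ratio of POLE2 to POLE counts was 0.214 and 0.238 in PC3 with miR-375 against 0.361 and 0.398 in its controls. In LNCaP the same ratio was 0.204 and 0.163 with miR-375 against 0.244 and 0.223 in controls. Both miR-375 values lay below both controls in each line, and the ratio was not tested. Of polymerase delta, the lagging-strand enzyme, the catalytic subunit POLD1 changed by -0.94 ± 0.07 in LNCaP and -1.07 ± 0.06 in PC3. Its accessory subunit POLD3 changed by -0.82 ± 0.09 in LNCaP and -0.76 ± 0.09 in PC3.

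All 7 genes of the clamp group fell in both lines. PCNA, the sliding clamp that holds polymerases on DNA, had the highest level per length of the 44 genes in LNCaP, at a mean of 84.4 CPM per kilobase in LNCaP with miR-375 against 167 in its controls. PCNA stood at 125 and 123 CPM in the LNCaP miR-375 libraries, against 249 and 242 CPM in the LNCaP controls. In PC3 it had 72.7 and 69.1 CPM with miR-375 and 122 and 123 CPM in controls, and the log2 fold change was -0.98 ± 0.04 in LNCaP and -0.79 ± 0.04 in PC3. RFC2 to RFC5 encode the small subunits of the complex that loads the clamp. RFC3 had the largest fall of the step in LNCaP, -1.52 ± 0.08, with 21.6 and 18.8 CPM with miR-375 and 60.4 and 55.5 CPM in controls, and -1.07 ± 0.09 in PC3, with 14.0 and 12.6 CPM with miR-375 and 28.2 and 27.5 CPM in controls. RFC2 had the smallest fall in LNCaP, -0.87 ± 0.07, with 32.2 and 30.2 CPM with miR-375 and 56.5 and 57.3 CPM in controls, and -0.83 ± 0.07 in PC3, with 20.5 and 19.3 CPM with miR-375 and 35.9 and 35.0 CPM in controls. The order of the loader subunits differed in PC3, where RFC5 had the largest fall and RFC4 the smallest. RFC5 had 19.4 and 19.7 CPM with miR-375 and 52.3 and 51.8 CPM in controls there, a log2 fold change of -1.41 ± 0.07, and RFC4 had 22.9 and 22.9 CPM with miR-375 and 37.6 and 39.8 CPM in controls, a log2 fold change of -0.76 ± 0.08. In LNCaP RFC5 changed by -1.12 ± 0.07, with 22.7 and 23.5 CPM with miR-375 and 50.2 and 50.2 CPM in controls, and RFC4 by -1.17 ± 0.08, with 21.2 and 20.2 CPM with miR-375 and 46.3 and 46.9 CPM in controls. None of the loader groups overlapped.

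Okazaki fragments are trimmed by the flap nuclease FEN1 and joined by DNA ligase 1, encoded by LIG1. FEN1 stood at 56.2 and 56.0 CPM in the LNCaP miR-375 libraries, against 155 and 151 CPM in the LNCaP controls, and its log2 fold change was -1.44 ± 0.05 in LNCaP and -1.22 ± 0.05 in PC3. LIG1 stood at 10.8 and 11.6 CPM in the LNCaP miR-375 libraries, against 21.4 and 21.6 CPM in the LNCaP controls, and at 11.9 and 10.8 CPM with miR-375 and 29.7 and 30.7 CPM in controls in PC3. Its log2 fold change was -0.94 ± 0.10 in LNCaP and -1.41 ± 0.10 in PC3, the opposite order of the lines from FEN1.

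All 5 genes of nucleotide supply fell in both lines. TYMS, thymidylate synthase, which makes dTMP from dUMP, fell most, with 10.6 and 8.83 CPM in the LNCaP miR-375 libraries, against 32.5 and 35.6 CPM in the LNCaP controls. In PC3 it had 16.9 and 14.4 CPM with miR-375 and 49.1 and 51.5 CPM in controls, and the log2 fold change was -1.81 ± 0.10 in LNCaP and -1.69 ± 0.09 in PC3. TK1, the thymidine kinase of the salvage route, changed by -1.49 ± 0.05 in LNCaP and -1.42 ± 0.05 in PC3. The RNA of TYMS and of TK1, which open the 2 routes to dTMP, was thus lower in each line. DUT, the dUTPase that removes dUTP and supplies dUMP, had the smallest fall in LNCaP, -0.77 ± 0.07, with 34.1 and 36.5 CPM with miR-375 and 60.7 and 60.0 CPM in controls. In PC3 DUT had 24.0 and 23.8 CPM with miR-375 and 60.2 and 68.2 CPM in controls, a log2 fold change of -1.43 ± 0.07.

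Ribonucleotide reductase, which turns ribonucleotides into deoxyribonucleotides, is built from the large subunit RRM1 and the small subunit RRM2. RRM2 stood at 67.8 and 62.9 CPM in the LNCaP miR-375 libraries, against 182 and 181 CPM in the LNCaP controls, a log2 fold change of -1.47 ± 0.04. In PC3 RRM2 had 144 and 141 CPM with miR-375 and 265 and 279 CPM in controls, a log2 fold change of -0.93 ± 0.04, the smallest fall of the step in that line. RRM1 changed by -0.84 ± 0.04 in LNCaP and -1.0 ± 0.05 in PC3. The ratio of RRM2 to RRM1 counts was 0.681 and 0.651 in LNCaP with miR-375 against 1.05 and 1.02 in its controls. In PC3 the same ratio was 2.59 and 2.56 with miR-375 against 2.40 and 2.51 in controls. The ratio was lower with miR-375 in LNCaP, whereas in PC3 both miR-375 values lay slightly above both controls. The ratios themselves were not tested. The test of the difference between lines is given for RRM2 below. For RRM1 the difference, LNCaP minus PC3, was 0.16 ± 0.06 (adjusted p = 0.0527, edgeR, not called).

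In fork protection and chromatin assembly 4 of 5 genes fell in each line. CLSPN encodes claspin, the fork adaptor needed to activate CHK1. It had the largest fall of the step, with 4.82 and 4.35 CPM in the LNCaP miR-375 libraries, against 16.2 and 19.7 CPM in the LNCaP controls, and 13.7 and 13.1 CPM with miR-375 and 37.2 and 37.3 CPM in controls in PC3. The log2 fold change was -1.97 ± 0.12 in LNCaP and -1.47 ± 0.10 in PC3. CHAF1A and CHAF1B encode the 2 larger subunits of chromatin assembly factor 1, which puts histones on new DNA. CHAF1A changed by -1.16 ± 0.08 in LNCaP and -1.19 ± 0.09 in PC3, and CHAF1B by -0.94 ± 0.09 in LNCaP and -1.09 ± 0.09 in PC3.

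TIMELESS and TIPIN encode the partners of one fork protection complex, of which the first fell in both lines and the second was not called in either. TIMELESS stood at 43.4 and 45.6 CPM in the LNCaP miR-375 libraries, against 93.2 and 97.1 CPM in the LNCaP controls, and at 29.2 and 28.7 CPM with miR-375 and 70.9 and 72.7 CPM in controls in PC3. Its log2 fold change was -1.10 ± 0.06 in LNCaP and -1.31 ± 0.06 in PC3. TIPIN stood at 21.1 and 19.9 CPM in the LNCaP miR-375 libraries, against 23.6 and 22.2 CPM in the LNCaP controls, where the groups did not overlap but lay close. In PC3 TIPIN stood at 10.5 and 9.18 CPM with miR-375 and 12.1 and 10.2 CPM in controls, and the groups overlapped. Its log2 fold change was -0.16 ± 0.11 in LNCaP (adjusted p = 0.296, edgeR) and -0.18 ± 0.12 in PC3 (adjusted p = 0.231, edgeR). A p that misses the threshold does not show that TIPIN stayed at one level. Of its exon bases, 21.0% overlap RPL9P25, a ribosomal protein pseudogene on the same strand, and reads of the 2 could not be separated here.

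A wider list of 48 genes of replication and nucleotide metabolism outside the 44 was read in the same fit. It too was chosen with earlier results of these data known. CHTF8 and RNASEH2A on it held at most 39 and 29 counts in any library, so a change in them could hardly be called. In LNCaP 33 of the 48 fell and 1 rose, against 18.7% and 13.9% of all genes tested. The median log2 fold change was -0.53, against 0 for all genes. In PC3 38 fell and 0 rose, against 20.8% and 22.2% of all genes tested. The median there was -0.57, against 0.02 for all genes. TICRR, which helps to start origins, had the lowest value in LNCaP, -1.71 ± 0.13, with 3.63 and 3.63 CPM with miR-375 and 11.4 and 12.3 CPM in controls, and -0.50 ± 0.10 in PC3. It was followed by WDHD1, a fork scaffold, at -1.59 ± 0.07, and DSCC1, of an alternative clamp loader, at -1.47 ± 0.10. In PC3 these changed by -1.30 ± 0.05 and -1.27 ± 0.10.

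The highest values of that list in LNCaP were those of RRM2B, POLD4 and TK2. RRM2B, the small reductase subunit known to be induced by p53, was the 1 gene that rose, at 119 and 105 CPM in the LNCaP miR-375 libraries, against 82.3 and 87.4 CPM in the LNCaP controls. The log2 fold change was 0.40 ± 0.06 (adjusted p = 8.23e-07, edgeR). In PC3 it had 119 and 105 CPM with miR-375 and 106 and 109 CPM in controls, a log2 fold change of 0.06 ± 0.06 that was not called. The difference of the fold changes, LNCaP minus PC3, was 0.35 ± 0.08 (adjusted p = 0.00119, edgeR). RRM2, the S-phase form of the same subunit, fell in both lines as given above. POLD4, the smallest subunit of polymerase delta, had 0.40 ± 0.16 in LNCaP (adjusted p = 0.0537, edgeR, not called), and TK2, the mitochondrial thymidine kinase, had 0.18 ± 0.09 (not called).

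The change with miR-375 itself was compared between the lines by the interaction contrast, in which a negative difference means a larger fall in LNCaP. Of the 44 genes 12 had a negative difference that passed the test and 3 a positive one, against 15.6% and 10.9% of all genes tested. The members' median difference was -0.10 and that of all genes -0.04. The split depended on the scaling: with total-count library sizes 7 were negative and 7 positive. Leaving out 1 library gave 5 to 11 negative and 2 to 7 positive. No called member differed by as much as 1 on the log2 scale.

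MCM10 had the largest negative difference, -0.77 ± 0.18 (adjusted p = 0.00127, edgeR). It lost the call without the first PC3 miR-375 library, at an adjusted p of 0.126 (edgeR) and within a range of -1.04 to -0.43 over the alternatives tried. RRM2 followed at -0.54 ± 0.06, then CLSPN at -0.49 ± 0.16, RFC3 at -0.45 ± 0.12, RFC4 at -0.41 ± 0.11, MCM4 at -0.38 ± 0.07 and MCM6 at -0.35 ± 0.07. The other 5 negative differences, of POLE, MCM2, FEN1, PCNA and MCM7, lay between -0.28 and -0.16. DUT had the largest positive difference, 0.65 ± 0.10 (adjusted p = 1.46e-06, edgeR), followed by LIG1 at 0.47 ± 0.14 and RFC5 at 0.29 ± 0.10. Of the 15 calls, 4 were kept in all 14 alternatives: RRM2, MCM4, MCM6 and DUT. A further 5 were kept in 11 to 13 of them, and 6 (CLSPN, POLE, MCM2, FEN1, PCNA and MCM7) in 5 or fewer. Leaving out a single LNCaP library moved each of those 6, and RFC3, by over 1.5 times and ended its call. With every library kept but no filter on low counts, none of those 6 was called either. There MCM7 stood at -0.06, PCNA at -0.10, FEN1 at -0.13, MCM2 at -0.16, POLE at -0.19 and CLSPN at -0.40. MCM4 and MCM6, ring subunits, stand beside MCM5, with 0.08 ± 0.10, and MCM3, with -0.12 ± 0.07, which were not called.

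**Figure D4:**
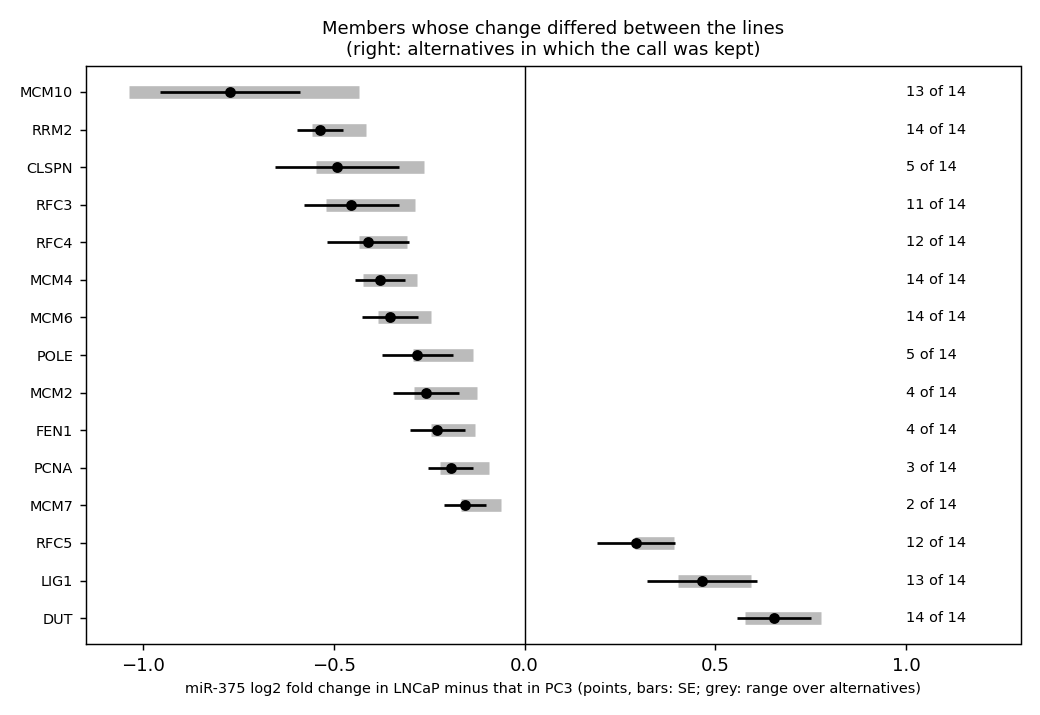
Difference of the miR-375 log2 fold changes, LNCaP minus PC3 (x axis), for the 15 members called, with points and black bars for the estimate and its SE, grey bands for the range over 14 alternatives, and at the right the number that kept the call. RRM2, MCM4, MCM6 and DUT kept it in 14 of 14, and no grey band crosses zero.

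The starting levels in the 2 lines were compared by LNCaP control over PC3 control, which shares its libraries with the contrasts above. Of the 44 genes 23 were higher in LNCaP and 15 higher in PC3, against 41.2% and 39.2% of all genes tested. The 6 not called were ORC2, MCM5, MCM6, POLA2, RFC5 and DUT. By step, the genes called higher in LNCaP and higher in PC3 were 5 and 0 of 6 in licensing, 3 and 2 of 7 in the helicase, 4 and 2 of 6 in helicase activation, 1 and 6 of 8 among polymerases, 5 and 1 of 7 in the clamp group, 1 and 3 of 5 in nucleotide supply, and 4 and 1 of 5 in fork protection. These counts are a description, and no test compared the steps.

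MCM10 had the largest gap, at 49.3 and 49.0 CPM in LNCaP controls and 8.43 and 8.46 CPM in PC3 controls, a log2 fold change of 2.54 ± 0.11. CDT1 followed at 1.67 ± 0.09, GMNN at 1.21 ± 0.07, MCM7 at 1.11 ± 0.04, RFC3 at 1.06 ± 0.08, TIPIN at 1.03 ± 0.11 and PCNA at 1.00 ± 0.04. So both CDT1 and its inhibitor geminin were higher in LNCaP. In the other direction POLD1 stood at 36.2 and 36 CPM in LNCaP controls and 87.2 and 91.0 CPM in PC3 controls, a log2 fold change of -1.30 ± 0.06. POLE2 followed at -1.29 ± 0.11, CLSPN at -1.06 ± 0.10, PRIM2 at -0.91 ± 0.11, MCM8 at -0.90 ± 0.11 and GINS4 at -0.90 ± 0.11. PRIM1 was the polymerase gene higher in LNCaP, at 0.57 ± 0.13, so the 2 primase subunits lay on opposite sides. The reductase subunits did too, with RRM1 at 0.66 ± 0.04 and RRM2 at -0.59 ± 0.04.

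**Figure D5:**
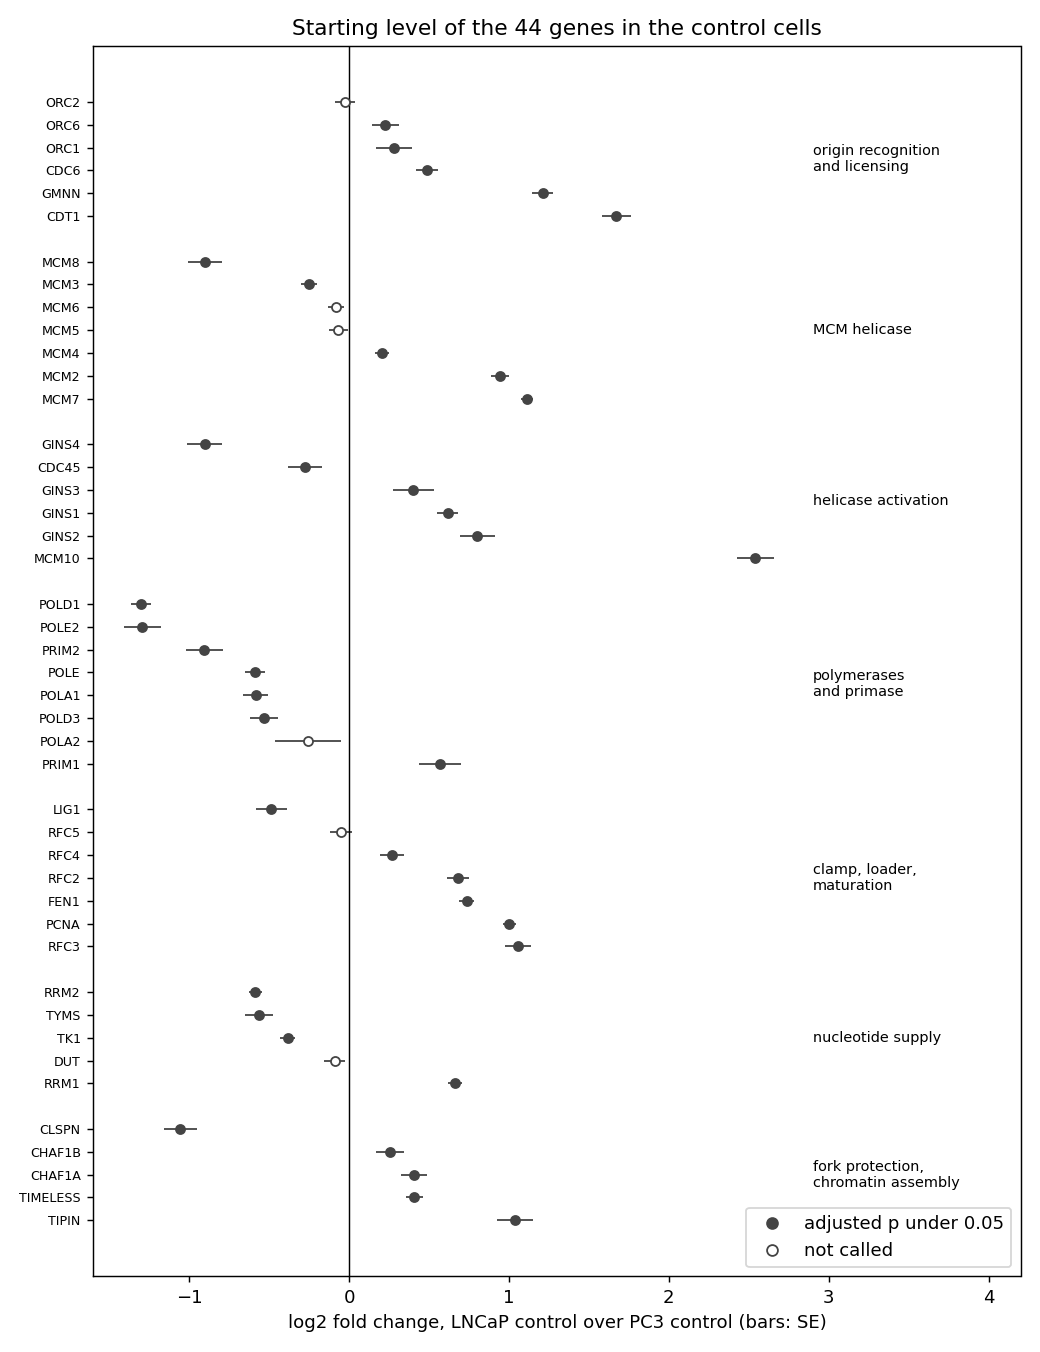
Log2 fold change of LNCaP control over PC3 control (x axis) for each of the 44 genes by step (y axis), with bars for the SE and filled points for an edgeR adjusted p under 0.05. MCM10 lies farthest right at 2.54, and 6 of 8 polymerase genes are called to the left of zero.

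Some members are uncertain in their reads, since neither the annotation nor the strand setting of the counting is given. More than 10% of the exon bases overlap another annotated gene in 10 members, TYMS (46.6%, with ENOSF1 and an antisense RNA) and POLA2 (35.1%) the most. Pseudogenes named after 7 members (PCNA, RFC3, RFC5, FEN1, RRM2, TYMS and DUT) can also share reads with them.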

How the data were processed

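The authors deposited one table of whole-number counts per gene for the 8 libraries, not normalized. The submitters' processing notes name fastp, STAR 2.7.1a, featureCounts, DESeq2 and hg38; the sources used here do not state their roles, the annotation, the strand setting, or whether a count is a read or a pair. Of counts between 1 and 20, 68.1% to 70.3% per library were even numbers. Of 60625 gene lines, 3 broken ones (279 counts) were left out.

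In R 4.3.3, 21066 genes passing filterByExpr were tested in one fit of the 4 groups (4 residual degrees of freedom) with edgeR 4.0.16's robust quasi-likelihood test, TMM scaling and Benjamini-Hochberg adjustment; calls are at an adjusted p under 0.05. The fitting code was run on simulated counts with known changes, drawn from the group means and spreads estimated here. Such a run checks the code and cannot show whether the p-values hold for separate cultures. Replicates were not identical (chi-square per degree of freedom over genes, 3.75 to 3.86). Exon lengths and 3′ UTRs come from GENCODE release 29, which held 98.3% of the tested identifiers.

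Members and lists were chosen with earlier results of these data known. By rule, each step's largest and smallest change in a line and members not called are given per library, and 6 genes of the wider list (the 3 lowest and 3 highest in LNCaP) are named; other per-library values were chosen after they were seen. Alternatives were total-count library sizes, DESeq2 1.42.0, limma-voom (limma 3.58.1), no filter, counts halved and rounded up, a replicate block, each line alone, and leaving out each library.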

Additional observations from a re-analysis of the deposited data

Results flagged for a closer look

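For 15 of the 44 genes the test of the difference between the lines passed the threshold, and each is listed with its difference (the miR-375 log2 fold change in LNCaP minus that in PC3) from edgeR's quasi-likelihood test. A larger fall in LNCaP was found for MCM10 (-0.77), RRM2 (-0.54), CLSPN (-0.49), RFC3 (-0.45), RFC4 (-0.41), MCM4 (-0.38) and MCM6 (-0.35). POLE (-0.28), MCM2 (-0.26), FEN1 (-0.23), PCNA (-0.19) and MCM7 (-0.16) had differences of the same sign whose calls were lost under most alternatives: of 14 they were kept in 5 for POLE, 4 for MCM2, 4 for FEN1, 3 for PCNA and 2 for MCM7. The call of CLSPN was kept in 5 of 14, that of MCM10 in 13 and that of RFC3 in 11. Leaving out 1 library moved 8 of the differences by over 1.5 times, each with its call lost. Without LNCaP miR-375 replicate 1, POLE stood at -0.14 and MCM7 at -0.07. Without LNCaP miR-375 replicate 2, MCM2 stood at -0.13, RFC3 at -0.29 and PCNA at -0.12. Without LNCaP control replicate 1, FEN1 stood at -0.13, PCNA at -0.09 and MCM7 at -0.07. Without LNCaP control replicate 2, CLSPN stood at -0.26, POLE at -0.15 and MCM7 at -0.08. MCM10 stood at -0.43 without PC3 miR-375 replicate 1. With every library kept but no filter on low counts, POLE, MCM2, FEN1, PCNA, MCM7 and CLSPN lost their calls too. MCM7 then stood at -0.06 and PCNA at -0.10. A larger fall in PC3 was found for DUT (0.65), LIG1 (0.47) and RFC5 (0.29). GINS4 (0.44), TIMELESS (0.21) and RRM1 (0.16) missed the threshold (adjusted p = 0.0523, 0.0541 and 0.0527 in that order, edgeR). These genes passed it in the same direction with total-count library sizes, DESeq2, no filter and halved counts. GINS1 (0.22) also passed it with total-count library sizes, no filter and halved counts, and POLA1 (0.25) with no filter and halved counts. No member gained a call for a larger fall in LNCaP under those settings. Line and serum share cannot be told apart in these differences.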

How the results depend on the processing

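The 43 calls in each miR-375 contrast, with 0 genes rising, kept their number and direction under every alternative run, each line fitted alone and the leave-one-out fits included. With total-count library sizes the median of all genes moved to 0.12 in LNCaP and 0.10 in PC3, and that of the 44 genes to -1.16 in LNCaP and -1.13 in PC3. The counts of genes whose change differed between the lines moved: 12 with a larger fall in LNCaP became 7 with total-count library sizes and 6 with DESeq2, with no filter and with halved counts, while 3 with a larger fall in PC3 became 7, 6, 8 and 8 in that order of settings. Leaving out 1 library gave 5 to 11 with a larger fall in LNCaP and 2 to 7 with a larger fall in PC3. Without any one of the LNCaP libraries the first count was 5 or 6 and the second 5 to 7; it was 6 and 2 without the first PC3 miR-375 library, 11 and 2 without the second, 9 and 2 without the first PC3 control, and 7 and 4 without the second. The median difference of all genes, -0.04 in the main fit, moved as well. It was 0.01 with total-count library sizes, 0.02 with DESeq2, 0.05 with no filter and 0.04 with halved counts. It was 0.05 and 0.06 without the first and second LNCaP control, and -0.05 to -0.01 without any one of the PC3 libraries. How far this shift of all genes accounts for the moved counts was not tested. The replicate numbers did not pair the libraries (correlation of deviations 0.018 in LNCaP and 0.010 in PC3), and the fit with the replicate block gave 43 and 43 falls and 12 and 3 differences. Of the 38 calls between the control groups, those of ORC1, ORC6, GINS3, CDC45 and CHAF1B were lost under 1 or more alternatives. With 2 libraries per group, a left-out library leaves a lone sample that is assumed to vary like the other groups. Among the 44 genes, depth limits POLA2 and the PC3 values of MCM10 most.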
